A study of Mus musculus with 6 samples.

Results

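The Rab genes, which encode the largest family of small GTPases, were followed in epithelial cells of the embryonic mouse lung, from controls and from embryos in which the transcription factor gene Grhl2 was deleted there. Members were the rows of the count table whose Entrez identifier has a mouse protein-coding symbol made of Rab, a number and optional letters. Of 69 such symbols, 10 name effectors or regulators, such as Rab11fip1 and Rab3gap1, and were left out. This leaves 59 Rab genes among the 27179 genes of the table, of which 54 passed the filter on low counts and 5 did not. The samples were EpCAM-positive cells sorted from lungs at E16.5, late in gestation. Control samples were Shh-Cre;Grhl2f/+ (n = 3, replicates 1, 3 and 7), with 1 floxed and 1 intact Grhl2 allele. Knockout samples, called Grhl2_cKO, were Shh-Cre;Grhl2f/- (n = 3, replicates 1, 5 and 10), with 1 floxed and 1 null allele. Both groups carried Shh-Cre, in which the Sonic hedgehog gene drives the recombinase in the lung epithelium from early development. Control cells in which Cre acted therefore keep 1 Grhl2 allele, and every value given as a share of control is relative to that state. Each group had 2 male samples and 1 female sample. The labels do not say whether a sample was 1 embryo. The spread behind each p-value is that among these libraries, which in each group include both sexes, and it may be in part technical.

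Rab proteins are molecular switches on membranes. With GTP bound, and with a lipid tail added by prenylation, a Rab protein sits on one kind of vesicle or organelle and recruits effectors such as tethers and motor proteins. Guanine nucleotide exchange factors switch it on, and GTPase-activating proteins with a TBC domain switch it off. In polarized epithelium, Rab proteins of the recycling endosome carry membrane proteins to the apical and lateral surfaces, and those of secretory granules dock the granules for release. Grhl2 is a grainyhead-like factor that controls genes of epithelial junctions and apical membranes.

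The libraries held 13472216 to 17228762 gene counts, and the 59 Rab genes together took 0.272% to 0.291% of the counts of a library. Values below are CPM, counts scaled to a common library size, with TMM factors that adjust for library composition. Where a library has 0 counts of a gene, counting error alone allows a level of up to 3 counts, or 0.177 to 0.224 CPM. Values of single libraries are listed in the order of control replicates 1, 3, 7 and Grhl2_cKO replicates 1, 5, 10. Grhl2 itself stood at 149.0, 147.8 and 145.9 CPM in the control libraries and 105.3, 109.1 and 115.2 CPM in the knockout libraries. Its log2 fold change was -0.43 ± 0.05 (SE; edgeR quasi-likelihood test, adjusted p = 0.00204), or 74.4% of control. Counts summed over the gene can include exons outside the deleted part, which was not tested. The share of cells in which Cre acted is not known from this value. Among 8 epithelial markers, the surfactant gene Sftpc took most of the sum, and the other 7 summed to 2474 to 2735 CPM in controls and 2120 to 2284 CPM in knockouts. Epcam, the sorting marker, was called lower, with a log2 fold change of -0.56. Krt8 and Cdh1 were lower in every knockout library without passing the threshold by edgeR. Of the 8 markers, edgeR called 1 lower and DESeq2, another test, called 2. The libraries of Krt18 (log2 fold change -0.37), Sox2 (-0.05), Sox9 (0.01), Nkx2-1 (0.04) and Sftpc (0.09) overlapped between genotypes, and none was called by edgeR. Of 14842 genes tested, 353 were called lower and 180 higher in Grhl2_cKO at an adjusted p under 0.05.

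To compare levels between genes, CPM was divided by the gene length given in the count table. Rab1b, Rab1a and Rab5c were the most abundant in control cells. Rab1b, which acts in transport from the endoplasmic reticulum to the Golgi, had the highest level, 113.9 ± 4.2 CPM per kilobase (SD, n = 3). Rab1a, its close relative, stood at 97.3 ± 8.1 and Rab5c, which drives fusion of early endosomes, at 92.6 ± 1.4 CPM per kilobase. Rab7, the Rab protein of late endosomes, followed at 83.6 ± 5.7 and Rab14, which acts between the trans-Golgi network and endosomes, at 75.9 ± 3.9 CPM per kilobase. The table gives Rab7 a length of 624 bases, the shortest among the 59 genes, so its level per length depends on that value. Rab25, a member of the Rab11 subfamily that is restricted to epithelia, was the 6th most abundant, at 62.3 ± 9.2 CPM per kilobase. Next came Rab18, at 57.6 ± 0.9, and Rab2a, at 52.1 ± 2.3 CPM per kilobase.

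Some neighbours in this order did not differ beyond their spread. The libraries of Rab1b (109.4 to 117.8 CPM per kilobase) lay above those of Rab1a (92.3 to 106.6). Those of Rab1a overlapped those of Rab5c (91.1 to 93.9), and those of Rab7 (77.1 to 87.3) overlapped those of Rab14 (72.0 to 79.7). The control libraries of Rab25 (55.7 to 72.8) overlapped those of both Rab14 and Rab18 (57.0 to 58.6). Of the 54 tested genes, 8 stood at 50 CPM per kilobase or more and 26 under 10, with bounds chosen after the values were seen. Rab11a, the general Rab protein of recycling endosomes, had 38.6 ± 1.9, and Rab15, which acts in early and recycling endosomes, had 29.0 ± 0.8 CPM per kilobase. The 5 genes under the filter, Rab9b, Rab33a, Rab39, Rab42 and Rab44, had 0 to 8 counts in a library and at most 0.513 CPM.

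**Figure D1:**
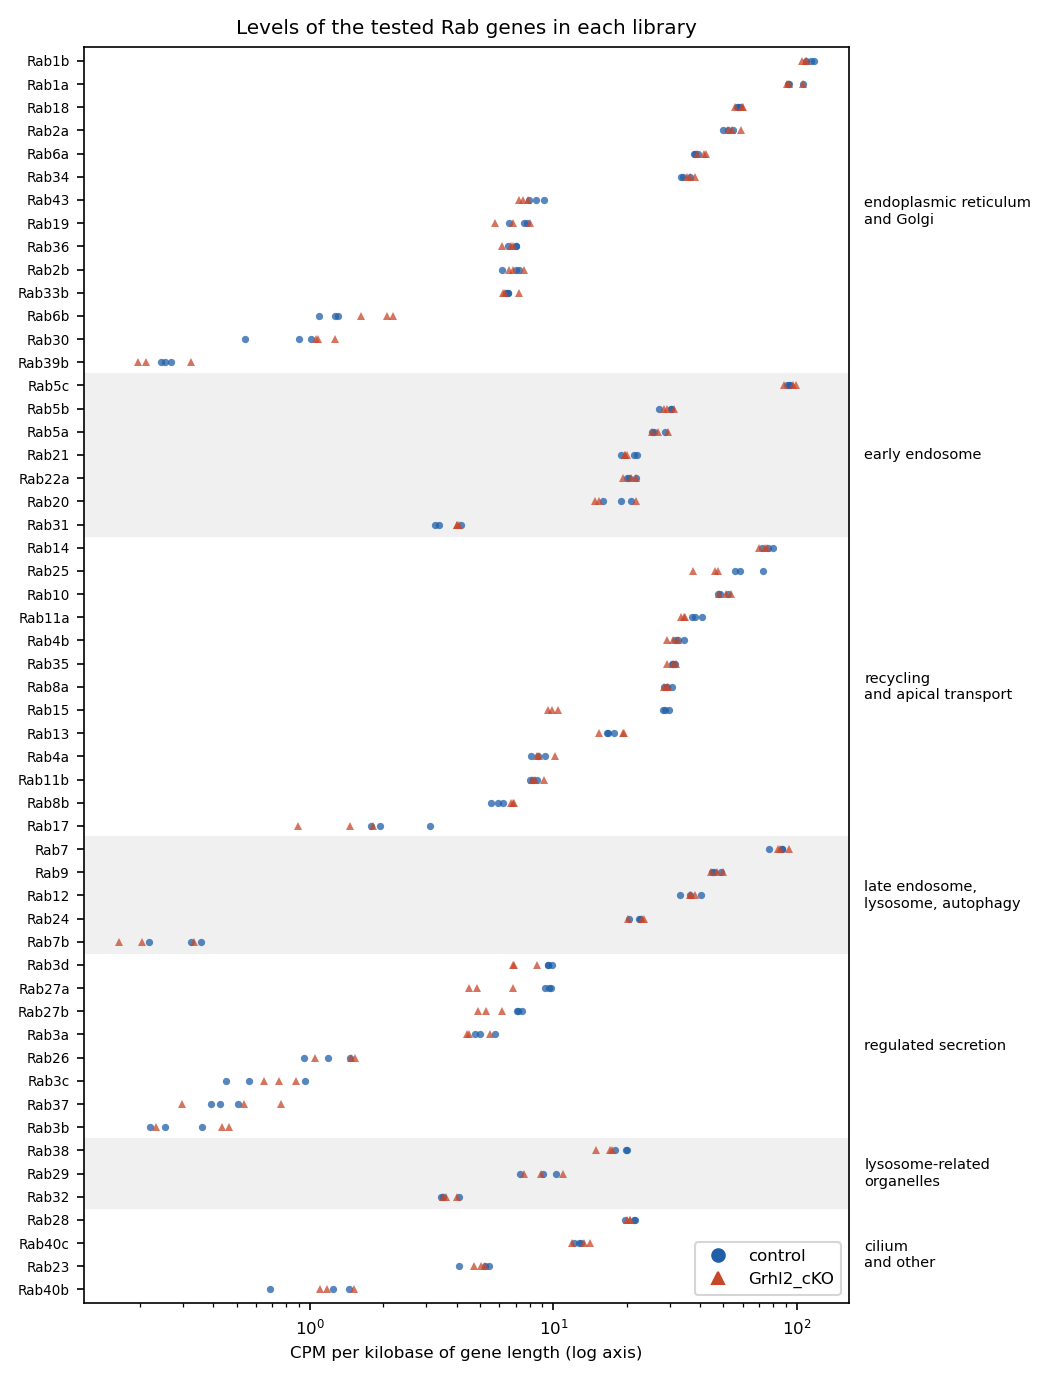
Level of each tested Rab gene in each library, in CPM per kilobase of gene length on a log axis, with control libraries as circles and Grhl2_cKO libraries as triangles, grouped by the role of the protein. The points of most genes overlap between genotypes, while those of Rab15 are apart, with controls at 28.3 to 29.8 CPM per kilobase.

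Most Rab genes had similar levels in both genotypes, and a few with roles in recycling and secretion were lower. The test called 4 of 54 Rab genes lower, Rab15, Rab25, Rab27a and Rab27b, and 1 higher, Rab6b. That is 7.41% lower, beside 2.38% of all tested genes called lower, and 1.85% higher, beside 1.21% of all tested genes. The CPM of the genotypes did not overlap for 8 Rab genes that were lower in Grhl2_cKO (14.8%, against 9.89% of all genes) and for 3 that were higher (5.56%, against 8.17%). The estimate lay below 0 for 24 genes and above 0 for 30, and the median log2 fold change was 0.02, beside -0.00 over all tested genes. At an unadjusted p under 0.05 there were 10 of 54 Rab genes (18.5%), beside 13.3% of all genes.

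The 49 genes not called had log2 fold changes between -0.70 (Rab17) and 0.46 (Rab3b). For 39 of the 54 tested genes the 95% interval of the fold change lay within 1.5-fold in either direction, a bound chosen after the data were seen. The intervals that reached past it were those of the 5 called genes, of Rab3d and Rab17, and of 8 genes at 5.58 CPM or less in controls, such as Rab3b and Rab30. A missed threshold in the uncalled ones does not show equal levels. Fewer cells of a type and less RNA per cell cannot be told apart in such bulk samples.

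**Figure D2:**
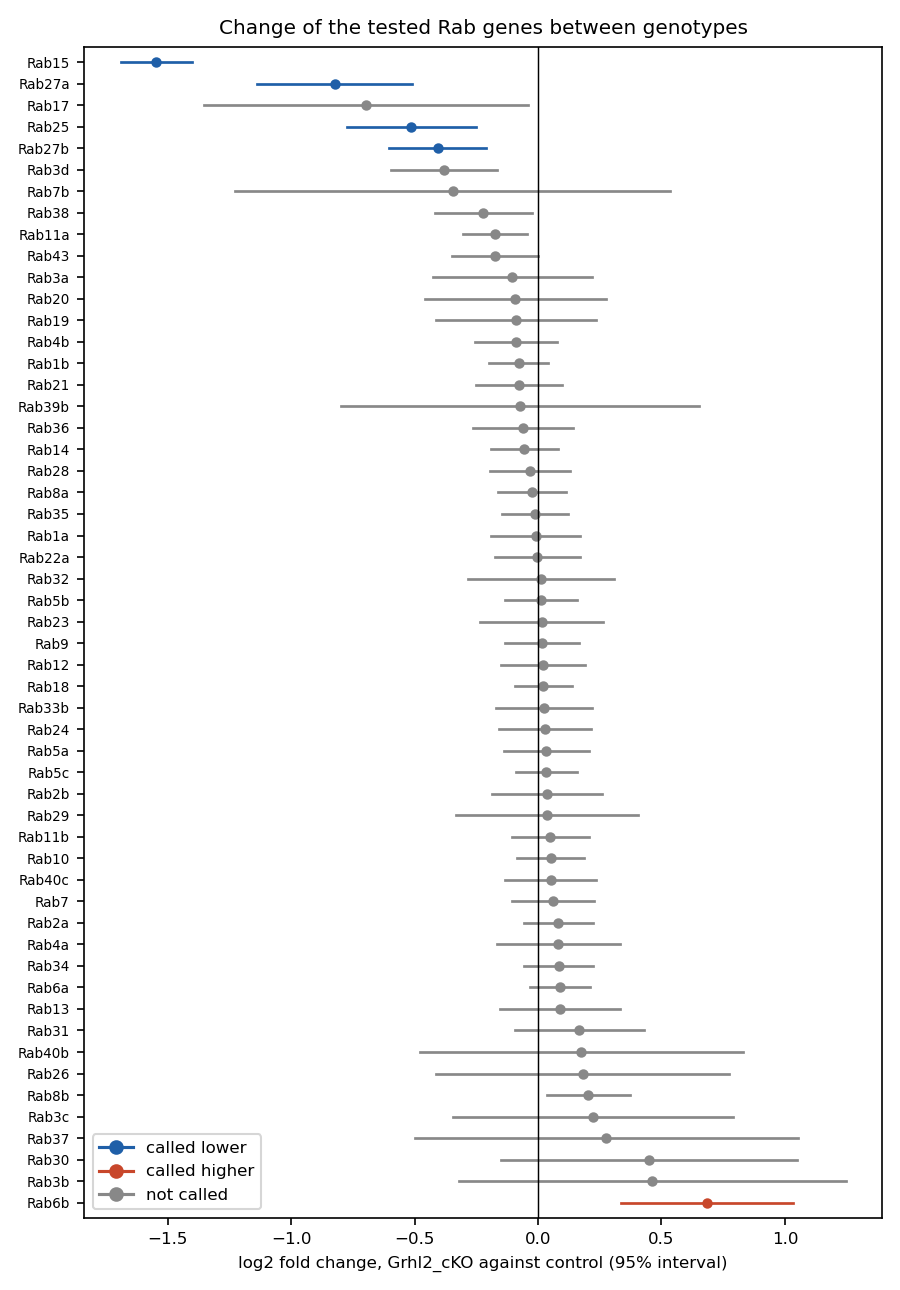
Log2 fold change of the 54 tested Rab genes, Grhl2_cKO against control, with points for the estimate and bars for the 95% interval. Rab15, at -1.55, lies far from all others, and Rab6b, at 0.68, is the 1 gene called higher.

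Rab15 was the Rab gene with the largest difference. Its CPM was 90.1, 88.5 and 93.1 in the control libraries and 32.5, 29.6 and 30.9 in the knockout libraries. Every knockout library was thus far below every control library, and the replicates within a genotype lay close together. The estimated log2 fold change, -1.55 ± 0.06 (SE, n = 3 per group), passed the edgeR quasi-likelihood test (adjusted p = 3.29e-06) and corresponds to 34.3% of control. Rab15 was called in all 14 alternative analyses, at adjusted p of 6.60e-05 or less. The gene lies on chromosome 12 (76797960 to 76822759, mm10).

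Rab25 fell as well, by a smaller step. It stood at 77.2, 61.8 and 59.0 CPM in the control libraries and 50.1, 39.6 and 48.7 CPM in the knockout libraries. The genotypes did not overlap, but control replicate 1 lay well above the other two controls. The estimated log2 fold change, -0.51 ± 0.12 (SE, n = 3 per group), passed the edgeR quasi-likelihood test (adjusted p = 0.0420) and corresponds to 70.1% of control. Adding sex to the model ended the call (edgeR adjusted p = 0.0644), as did 5 of the 6 omissions of 1 library. The adjusted p was 0.0819 without control replicate 1, 0.0840 without control replicate 3 and 0.0566, 0.137 and 0.0993 without Grhl2_cKO replicates 1, 5 and 10, and without control replicate 1 the log2 fold change was -0.38. Over all 14 alternatives the adjusted p ranged from 0.00115 to 0.137. Rab25 lies on chromosome 3 (88542029 to 88548279, mm10).

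Promoter sequences of 3 of the lower genes are shown because Grhl2 is a DNA-binding factor. Rab27b, also called lower, had no promoter window in the source used, so it was not searched. They are the 120 bases before an annotated start site, from RefSeq windows on GRCm38.p6 (the build called mm10), with matches to AACNNGTT in capitals. For Rab15, which has 4 windows, and Rab27a, which has 2, the most upstream one is shown. The sequences are at chr12:76822525-76822644 (minus strand), chr3:88548280-88548399 (minus strand) and chr9:73044690-73044809 (plus strand).
Rab15: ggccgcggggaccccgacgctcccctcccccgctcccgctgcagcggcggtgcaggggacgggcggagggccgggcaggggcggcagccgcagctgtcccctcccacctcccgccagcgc
Rab25: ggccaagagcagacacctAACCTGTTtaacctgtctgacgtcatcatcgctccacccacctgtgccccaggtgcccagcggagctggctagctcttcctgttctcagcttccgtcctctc
Rab27a: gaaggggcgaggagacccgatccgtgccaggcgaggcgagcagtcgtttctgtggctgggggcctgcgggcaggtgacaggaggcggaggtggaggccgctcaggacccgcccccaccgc

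Windows of 300 bases, 250 before and 50 after the start site, were searched for AACCGGTT, a grainyhead motif that reads the same on both strands, and for the looser AACNNGTT, which contains it. Of the 59 Rab genes, 48 had at least 1 window and 11, Rab27b among them, had none. AACCGGTT was in no Rab window, beside 0.146% of all 32851 windows. AACNNGTT was in 1 of 60 Rab windows (1.67%), that of Rab25, beside 4.20% of all windows. Its first base lies at -102 from the start site, and the letters are AACCTGTT. A match describes letters in this window and is no evidence of binding, and the lack of one says nothing about the factor.

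The other 11 genes of the recycling and apical transport group were not called. Rab11a stood at 94.9, 86.2 and 89.1 CPM in the control libraries and 78.2, 80.01 and 80.9 CPM in the knockout libraries. The libraries did not overlap, but the log2 fold change of -0.18 ± 0.06 (SE, n = 3 per group) missed the threshold (edgeR adjusted p = 0.175). Rab14 was at 221.8, 234.5 and 245.6 CPM in controls and 228.9, 231.6 and 215.0 CPM in knockouts, with overlapping libraries. Rab8b, which acts in apical and ciliary transport, was at 26.4, 29.5 and 28.2 CPM in controls and 32.7, 32.3 and 31.9 CPM in knockouts. Every knockout library was above every control library, without passing the threshold (log2 fold change 0.20 ± 0.08, edgeR adjusted p = 0.240). Rab17, an epithelial Rab gene of apical sorting, had 6.05, 3.77 and 3.48 CPM in controls and 3.54, 1.73 and 2.84 CPM in knockouts, with overlap and an edgeR adjusted p of 0.335.

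The summed level of the 13 recycling genes was 390.8 ± 10.1 CPM per kilobase in controls and 346.6 ± 9.4 in knockouts (SD, n = 3 each). Without Rab15 and Rab25, a choice made after seeing the values, the sums were 299.6 ± 2.7 and 293.2 ± 3.6 CPM per kilobase. The difference in the sum was thus mainly in these genes. No test was made of the sums, since members were chosen with results known.

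Of the 8 genes of regulated secretion, Rab27a and Rab27b fell, and Rab3d missed the threshold. Per length, Rab3d (9.49 to 9.90 CPM per kilobase) and Rab27a (9.23 to 9.81) had the highest control levels of the group and overlapped. Rab27 proteins dock secretory granules and lysosome-related organelles at the plasma membrane. Rab27a stood at 28.5, 27.4 and 29.1 CPM in the control libraries and 20.3, 14.4 and 13.4 CPM in the knockout libraries. Controls lay close together, and Grhl2_cKO replicate 1 was nearer to them than the other two knockouts were. The estimated log2 fold change, -0.82 ± 0.14 (SE, n = 3 per group), passed the edgeR quasi-likelihood test (adjusted p = 0.0112) and corresponds to 56.5% of control. The call was lost only without Grhl2_cKO replicate 5 (edgeR adjusted p = 0.0528). An exon of Rab27a overlaps the pseudogene Gm27186 on the same strand, so reads there could be assigned to either.

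Rab27b stood at 53.1, 50.6 and 50.7 CPM in the control libraries and 43.7, 37.7 and 35.0 CPM in the knockout libraries. The genotypes did not overlap, and replicate 1 was again the highest knockout. The estimated log2 fold change, -0.41 ± 0.09 (SE, n = 3 per group), passed the edgeR quasi-likelihood test (adjusted p = 0.0330) and corresponds to 75.4% of control. It was not called without control replicates 1, 3 or 7 (edgeR adjusted p = 0.0782, 0.0967 and 0.0732) or without Grhl2_cKO replicates 5 or 10 (0.125 and 0.123). Its 14 alternatives spanned 0.00533 to 0.125.

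Rab3d, which acts in exocytosis from secretory cells, had 38.3, 36.9 and 36.7 CPM in the control libraries and 33.0, 26.6 and 26.3 CPM in the knockout libraries. The libraries did not overlap, and its log2 fold change of -0.38 ± 0.10 (SE, n = 3 per group) missed the threshold (edgeR adjusted p = 0.0669). It passed with DESeq2 (adjusted p = 0.0336), with no filter (0.0450), with the robust fit (0.0442) and without Grhl2_cKO replicate 1 (0.0131), within a range of 0.0131 to 0.245. The other 5 genes of the group, Rab3a, Rab3b, Rab3c, Rab26 and Rab37, had overlapping libraries. The summed level of the 8 genes was 34.2 ± 1.6 CPM per kilobase in controls and 26.1 ± 2.5 in knockouts, and 17.4 ± 1.3 and 15.2 ± 1.1 without Rab27a and Rab27b.

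**Figure D3:**
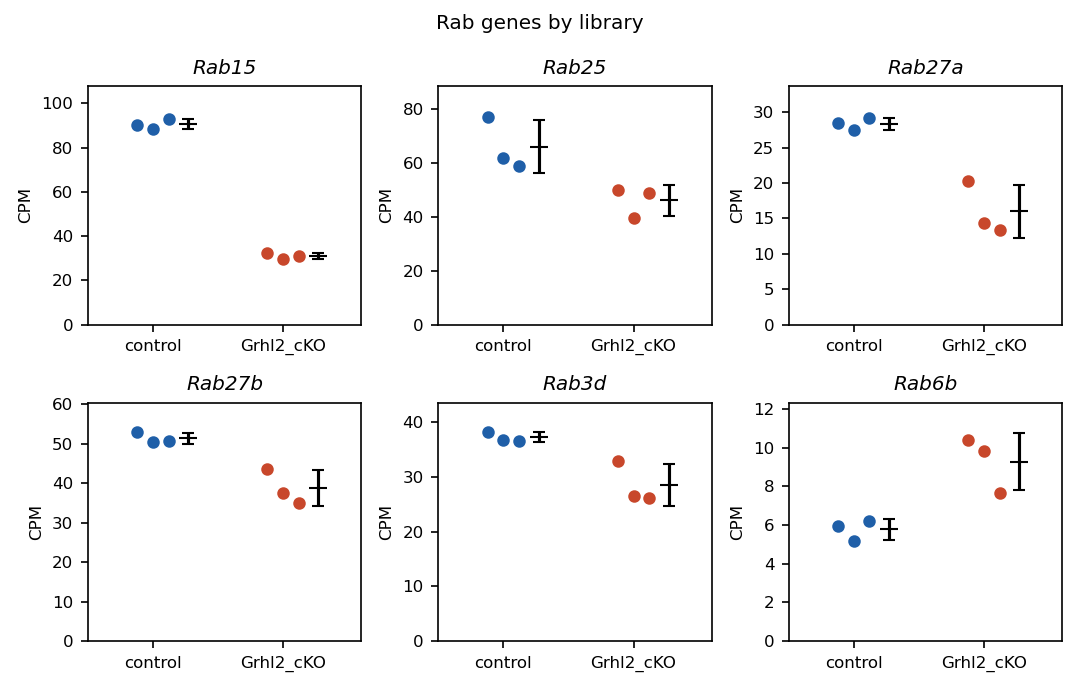
CPM of 6 Rab genes in each library, with a point per library and the mean with its SD beside the points, on axes that start at 0. The knockout libraries lie below the controls for Rab15, Rab25, Rab27a, Rab27b and Rab3d and above them for Rab6b, and the 6 genes were chosen after the values were seen.

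In the endoplasmic reticulum and Golgi group, 1 of 14 tested genes was called, Rab6b, which acts in Golgi transport and is best known from neurons. It stood at 5.97, 5.17 and 6.19 CPM in the control libraries and 10.4, 9.82 and 7.63 CPM in the knockout libraries. The libraries did not overlap. The estimated log2 fold change was 0.68 ± 0.16 (SE, 3 libraries per group; by edgeR, adjusted p = 0.0417), or 160.7% of control. This call was the least stable of the 5, since it was made in 6 of 14 alternatives, with adjusted p from 0.0199 to 0.165. It was lost with library totals (0.0506), limma-voom (0.0567) and sex as a covariate (0.0505). Without 1 library the edgeR adjusted p was 0.0573, 0.165 and 0.0800 for control replicates 1, 3 and 7 and 0.134 and 0.146 for Grhl2_cKO replicates 1 and 5.

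Rab6a, the widely expressed relative, was at 127.9 ± 2.6 CPM in controls and 136.1 ± 6.4 in knockouts. Rab1b was at 216.2, 200.8 and 209.9 CPM in controls and 199.4, 193.3 and 200.9 CPM in knockouts, and its 95% interval of the log2 fold change ran from -0.20 to 0.04. Rab43, a Golgi Rab gene, lay lower in every knockout library (35.7 ± 1.5 against 40.3 ± 2.8 CPM; edgeR adjusted p = 0.385). Rab30, also of the Golgi, lay higher in every knockout library at low level (2.18 ± 0.22 against 1.58 ± 0.47 CPM; edgeR adjusted p = 0.591).

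None of the 7 early endosome genes was called by edgeR, DESeq2 or limma-voom, none had an unadjusted p under 0.05 and all had overlapping libraries. Rab5c was at 147.7, 146.1 and 143.3 CPM in the control libraries and 152.0, 139.7 and 155.7 CPM in the knockout libraries, with a 95% interval of the log2 fold change from -0.09 to 0.16. Rab31, which acts between the trans-Golgi network and endosomes, had the smallest p of the group. Its levels of 14.6, 11.3 and 11.8 CPM in controls overlapped those of 14.2, 13.9 and 14.0 CPM in knockouts. The summed level of the group was 212.4 ± 5.8 CPM per kilobase in controls and 213.6 ± 9.1 in knockouts.

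Late endosome and lysosome genes gave no call among 5 tested with any of these tools, and 0 had an unadjusted p under 0.05. Rab7 was at 48.1, 54.4 and 54.0 CPM in controls and 53.2, 52.4 and 57.7 CPM in knockouts. Rab7b, a relative that acts from late endosomes to the trans-Golgi network, was near the limit of detection, at 0.821, 0.548 and 0.903 CPM in controls and 0.841, 0.513 and 0.414 CPM in knockouts. Its 95% interval, from -1.23 to 0.54 on the log2 scale, was among the widest.

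Rab38, with Rab32 and Rab29 one of 3 genes of lysosome-related organelles, acts in the lamellar bodies that store surfactant in alveolar type 2 cells. It stood at 31.4, 31.5 and 28.2 CPM in the control libraries and 27.5, 23.7 and 27.04 CPM in the knockout libraries. The libraries did not overlap, but the log2 fold change of -0.22 ± 0.09 (SE, n = 3 per group) missed the threshold (edgeR adjusted p = 0.294). None of the 3 was called by edgeR, DESeq2 or limma-voom, and Rab38 was the 1 with an unadjusted p under 0.05. The 8 alveolar type 2 markers summed to 5544 to 5999 CPM in controls and 5216 to 6336 CPM in knockouts, and moved in both directions. Sftpd was called lower by edgeR, at 45.6% of control (DESeq2 called 3 markers lower and 2 higher), Sftpa1 and Lpcat1 were lower in every knockout library, Sftpb and Napsa were higher in every one, and 6 of 8 had an unadjusted p under 0.05. Their part in the level of Rab38 was not tested.

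Among the 4 tested genes with roles in cilia or other functions none was called by edgeR, DESeq2 or limma-voom, and 0 had an unadjusted p under 0.05. Rab28, which acts at the cilium of photoreceptors, was at 35.3, 35.1 and 32.2 CPM in controls and 33.8, 32.7 and 33.8 CPM in knockouts. Rab40c, which has a SOCS box and joins ubiquitin ligases, was at 30.0, 31.5 and 32.1 CPM in controls and 34.8, 32.8 and 29.5 CPM in knockouts. Summed over all 59 Rab genes, the level was 1331 ± 29 CPM per kilobase in controls and 1283 ± 33 in knockouts.

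Close relatives were compared within each library, as shares of their summed level per length, a description chosen after seeing the data. Rab25 made up 56.9 ± 2.6% of the Rab11 subfamily in controls and 50.3 ± 3.2% in knockouts (SD, n = 3 each), and Rab11a 35.5 ± 2.1% and 39.7 ± 2.8%. Within the Rab27 pair, Rab27b made up 43.7%, 43.5% and 42.1% in the control libraries and 47.3%, 52.2% and 52.2% in the knockout libraries. Rab27a was the higher of the pair in every control library and in Grhl2_cKO replicate 1, and the lower in the other two knockouts. Rab8b held 16.6 ± 0.7% of the Rab8 pair in controls and 19.0 ± 0.3% in knockouts, and Rab5c held 62.3 ± 0.3% and 62.5 ± 1.0% of the Rab5 subfamily. No test was made of these shares.

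**Figure D4:**
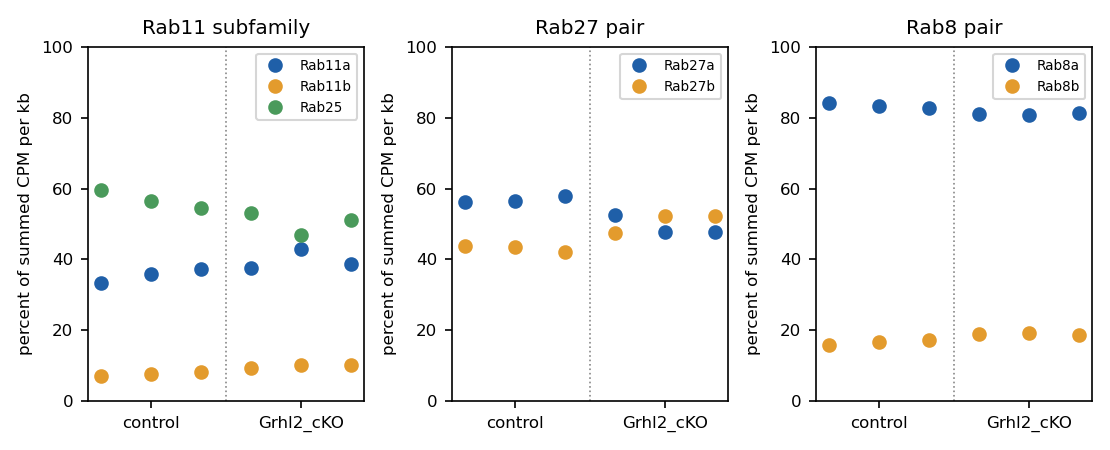
Share of each gene in the summed CPM per kilobase of its subfamily, in percent, with a point per library and a dotted line between the 3 control and the 3 Grhl2_cKO libraries. Rab25 stays the largest part of the Rab11 subfamily, and the order of Rab27a and Rab27b is the other way round in Grhl2_cKO replicates 5 and 10.

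Markers of other cell types moved between the genotypes alongside these Rab genes. The 12 ciliated cell markers summed to 488.6 to 544.7 CPM in controls and 397.1 to 425.8 in knockouts, and 8 of 11 tested were called lower. The tubulin gene Tubb4b took most of the sum. Without it the sums were 202.2, 151.8 and 161.5 CPM in controls and 103.7, 74.6 and 68.03 CPM in knockouts. Secretory cell markers summed to 318.2, 270.4 and 229.6 CPM in controls and 194.8, 98.0 and 102.0 CPM in knockouts. Of 6 tested, 2 were called lower. Grhl2_cKO replicate 1 was the highest knockout in both of these sums and for mesenchyme markers, and the lowest for endothelium markers. Of the secretory markers, Bpifa1 was at 0 counts in every library. Neuronal markers summed to 12.4 to 16.6 CPM in controls and 26.6 to 31.9 in knockouts, with 3 of 6 tested called higher. These were Ret, Tubb3 and Elavl3. Ret took most of the sum in every library, at 10.0, 7.97 and 9.09 CPM in controls and 18.1, 18.5 and 22.2 CPM in knockouts. Tubb3 and Elavl3 had means of 0.290 and 0.855 CPM in controls and 2.03 and 2.60 CPM in knockouts. Elavl4, Snap25 and Stmn2 overlapped between genotypes. Heart muscle markers summed to 160.8 to 188.8 CPM in controls and 215.2 to 414.5 in knockouts, with replicate 1 the highest. Of 7 tested, 1 was called higher, Myh7, which took most of the sum in controls. Myh7 stood at 146.5, 138.4 and 139.1 CPM in controls and 200.5, 191.5 and 195.8 CPM in knockouts. Every other heart muscle marker overlapped between genotypes and was highest in Grhl2_cKO replicate 1. Actc1, for example, had 11.7, 4.81 and 3.74 CPM in controls and 51.3, 6.16 and 3.90 CPM in knockouts. No alveolar type 1, mesenchyme, endothelium or blood and immune marker was called by edgeR, DESeq2 or limma-voom, 1 of them (endothelium) had an unadjusted p under 0.05, and their sums overlapped between genotypes. The ranges in controls and knockouts were 1089 to 1384 and 1162 to 1395 CPM for type 1 cells and 909.4 to 1463 and 879.4 to 1764 CPM for mesenchyme. They were 128.0 to 196.0 and 168.2 to 183.0 CPM for endothelium and 16.3 to 28.3 and 14.7 to 28.4 CPM for blood and immune cells. The part of these cells in the levels of Rab15, Rab25, Rab27a, Rab27b and Rab6b was not tested.

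Genes that act on Rab proteins were mostly not called. Of 128 listed, 127 were matched and 125 tested, and 3 were called lower (2.40%, beside 2.38% of all genes) and 1 higher (0.800%, beside 1.21%). The libraries did not overlap for 26 of the 125 that were lower in knockouts (20.8%, beside 9.89%) and for 3 that were higher (2.40%, beside 8.17%). The inactivators held 11 of the 26 (32.4% of 34, beside 9.89% of all genes), and the effectors also held 11 (22.9% of 48). At an unadjusted p under 0.05 there were 8 of 34 inactivators (23.5%), beside 13.3% of all genes. None of the 8 genes of prenylation, escort and GDP dissociation inhibition was called by edgeR, and none had an unadjusted p under 0.05. None of 35 activators was called by edgeR, with 4 at an unadjusted p under 0.05 (11.4%, beside 13.3% of all genes). DESeq2 and limma-voom also gave 0 calls in both lists. Of 34 TBC-domain inactivators, 1 was called lower by edgeR (2.94%, beside 2.38% of all genes), and DESeq2 also called Tbc1d30 (adjusted p = 0.0339). The 1 called by edgeR was Tbc1d4, whose protein holds back the glucose transporter vesicles of muscle and fat. It stood at 27.5, 29.8 and 27.1 CPM in the control libraries and 21.8, 19.2 and 18.8 CPM in the knockout libraries (log2 fold change -0.50, SE 0.09, by edgeR adjusted p = 0.0152). The threshold was missed once control replicate 3 or Grhl2_cKO replicate 5 or 10 was left out (edgeR adjusted p = 0.0754, 0.0716 and 0.0750).

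Of 48 tested effectors, edgeR called 2 lower (4.17%, beside 2.38% of all genes) and 1 higher (2.08%, beside 1.21%). The same counts came from limma-voom, and DESeq2 gave 3 lower and 1 higher. Over all genes, limma-voom called 358 lower and 185 higher, and DESeq2 called 423 lower and 246 higher. Mlph, which encodes melanophilin, the link between Rab27a and a myosin motor, stood at 10.2, 10.8 and 10.2 CPM in the control libraries. The knockout libraries held 3.00, 1.86 and 1.42 CPM. The estimated log2 fold change was -2.30 ± 0.22 (SE, 3 libraries per group; by edgeR, adjusted p = 0.000479), and it was called in all 14 alternatives. Sytl2, a synaptotagmin-like gene whose protein also binds Rab27, fell from 10.4, 9.43 and 8.70 CPM to 6.31, 5.65 and 5.50 CPM (log2 fold change -0.70 ± 0.13, edgeR adjusted p = 0.0176). The threshold was missed once control replicate 3 or Grhl2_cKO replicate 5 or 10 was left out (edgeR adjusted p = 0.0677, 0.0716 and 0.0752). Mical1, an enzyme that acts on actin and binds several Rab proteins, rose from 173.1, 202.5 and 201.7 CPM to 226.6, 249.8 and 257.3 CPM (log2 fold change 0.35 ± 0.08, edgeR adjusted p = 0.0357).

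For Mical1, adding sex to the model ended the call (edgeR adjusted p = 0.0644), as did 5 of the 6 omissions of 1 library. The adjusted p was 0.0554, 0.0708 and 0.0697 without control replicates 1, 3 and 7, and 0.118 and 0.108 without Grhl2_cKO replicates 5 and 10. Rab11fip1, whose protein binds Rab11 and Rab25, was at 63.8, 42.1 and 46.7 CPM in controls and 30.8, 27.7 and 39.05 CPM in knockouts. Its libraries did not overlap, and its log2 fold change of -0.64 ± 0.16 missed the threshold by edgeR (adjusted p = 0.0658) and passed by DESeq2 (adjusted p = 0.00110). It was named after its values were seen. Myo5b, the myosin motor that works with Rab11a, was at 129.8, 116.3 and 114.3 CPM in controls and 119.97, 111.1 and 116.7 CPM in knockouts, with overlapping libraries, and was also chosen after its values were seen.

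Some counts are uncertain because of shared sequence. At 95% identity over 250 bases or more, 7 Rab genes had a copy elsewhere in the GENCODE M21 transcripts: Rab2a, Rab5b, Rab6a, Rab7, Rab8b, Rab9 and Rab11b, each with a processed pseudogene. Exons of 20 Rab genes overlapped those of another annotated gene. The library kit keeps the strand, but whether the counting used strand is not stated. Of the called genes, Rab27a was the 1 with such an overlap, and none had a near copy.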

How the data were processed

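Messenger RNA was sequenced from sorted EpCAM-positive lung cells of 6 samples. Per the labels' protocols, stranded libraries of polyadenylated RNA were run on an Illumina HiSeq. The authors deposited raw read counts per Entrez gene with a gene length. Per the submitters' processing notes, bcl2fastq 2.17.1.14, featureCounts, edgeR 3.16.5 and limma 3.30.12 were used with mm10. Which aligner and strand setting were used, and how reads with several matches were counted, was not given in the sources used here.

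RefSeq symbols matched 25275 of 27179 identifiers (99.19% of counts). The test was edgeR 4.0.16 in R 4.3.3, quasi-likelihood, on all 6 libraries with TMM factors (0.981 to 1.009), filterByExpr (minimum count 10, minimum total 15), a prior count of 0.125 and Benjamini-Hochberg adjustment over 14842 genes, with a threshold of 0.05. Standard errors were derived from the log2 fold change and the F statistic (size over root F), and 95% intervals use them. The biological coefficient of variation was 9.52%. The test was checked on simulated counts. Groups came from the genotype in the sample descriptions. Alternatives were RLE and library totals, 2 other filters, DESeq2 1.42.0, limma-voom 3.58.1, robust fits, a sex covariate and leaving out each library. A further 6, on library sizes, order of steps and dispersion, were chosen after seeing the data. Near copies were searched with BLAST 2.17.0.

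Values in every library are given for called Rab genes, for Rab11a, Rab15 and Rab25, and for the most abundant gene and the gene with the smallest p of each role. Rab8b, Rab17, Rab30, Rab43, Rab1a, Rab18, Rab2a and Rab6a were added after their values were seen. The Rab genes, roles and lists were chosen with earlier results of these data known. 1 list of cell type markers is not reported here.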

Additional observations from a re-analysis of the deposited data

How the results depend on the processing

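Of the 5 Rab calls, Rab15 was made in all 14 alternatives, Rab27a in 13, Rab27b in 9, Rab25 in 8 and Rab6b in 6, and no Rab gene changed direction where it was called. The number of Rab genes called higher was 0 with library totals, with limma-voom and with sex as a covariate, against 1. Leaving out each library in turn gave 1 to 4 Rab genes called lower and 0 to 1 called higher, and 165 to 336 genes lower and 77 to 221 higher over all genes tested. The 1 Rab gene still lower without Grhl2_cKO replicate 5 was Rab15. Rab genes called lower numbered 2 without control replicate 1, control replicate 3 or Grhl2_cKO replicate 10. These fits have 5 libraries, so their power is lower, and the counts also differed with the library left out. Without Grhl2_cKO replicate 1, 336 genes were called lower, 4 of them Rab genes, against 165 and 1 without Grhl2_cKO replicate 5. Without control replicate 1, 221 genes were called higher, against 180 with all 6 libraries. The median log2 fold change of the Rab genes was -0.00 to 0.02 over the 14 alternatives. The 6 settings chosen after seeing the data gave 4 lower and 1 higher Rab genes each, with 349 to 355 lower and 180 to 189 higher over all genes. No paired analysis was made, because the labels name no pairs and the groups share 1 replicate number. Depth limits the genes under the filter and those near 1 CPM, whose intervals are wide.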
